A study of Mus musculus with 10 samples.

Results

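Ctnnb1, the gene of beta-catenin, was examined with 9 genes whose proteins carry the Wnt signal to it or act with it. The 10 genes were taken by symbol from a table of 21612 mouse genes: the co-receptors Lrp5 and Lrp6, the Wnt7 co-activators Reck and Adgra2, the destruction-complex members Apc, Axin1 and Gsk3b, Ctnnb1 itself, and the paralogues Bcl9 and Bcl9l. All 10 passed the filter on low values, a normalised count of at least 10 in at least 2 libraries, which 15211 genes passed. Levels are normalised counts, which are reads on a gene divided by a factor for the depth of the library.

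In canonical Wnt signalling a ligand binds a Frizzled receptor together with LRP5 or LRP6. Without ligand, APC and AXIN1 hold beta-catenin while kinases such as GSK3B phosphorylate it, and the proteasome then removes it. With ligand this complex is held at the membrane, beta-catenin reaches the nucleus, and BCL9 or BCL9L links it to PYGO proteins at TCF and LEF factors on the DNA. In brain vessels RECK and ADGRA2 (GPR124) make the endothelial cell respond to Wnt7a and Wnt7b, the ligands that neural progenitors supply while the blood-brain barrier (BBB) forms.

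The libraries were mRNA sequencing of primary cortical endothelial cells (ECs) of WT mice (C57BL/6J by the study's methods), in 4 groups: 3 libraries from embryos at E13.5, and from adults 3 control libraries, 2 treated with Wnt3a at 200 nM by the labels, and 2 treated with MS-275, an inhibitor of class I histone deacetylases, at 10 µM. The study's methods describe Wnt3a at the same figure in mass per volume, so its dose is not settled here. The cells came from pooled cortex freed of meninges, the adult ones from males, with embryos of a litter pooled as a replicate, and were expanded on collagen and used after passage, and the study names culture-induced change as a limit. E13.5 and adult control cells had no treatment, and no library combined Wnt3a with MS-275.

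Reads on genes ranged from 21171509 to 31810932 per library. The endothelial label was checked against 12 markers. Their summed normalised count was 4660.4 to 4955 in the E13.5 libraries, 244238 to 329924 in adult control, 201454 to 241157 with Wnt3a and 32322 to 48461 with MS-275. In E13.5 the junction genes Pecam1 and Cdh5 stood at 59.4 ± 12.9 and 74.8 ± 28.8 (SD, n = 3), and Cldn5 at 1.06 ± 1.84, against 71699 ± 11642 for Pecam1 in adult control. The VEGF receptor genes Kdr and Flt1 stood at 765 ± 204 and 806 ± 43.4 in E13.5, against 20785 ± 9337 and 5892 ± 713, and Slc2a1, the glucose transporter of the BBB, stood at 2923 ± 414 in E13.5 and 2839 ± 916 in adult control. In adult control 11 of the 12 markers were called higher. The 10 pericyte and smooth muscle markers summed to 32775 to 51665 in E13.5 and to 85.0 to 118 in adult control. The 12 neural progenitor and neuron markers summed to 32627 to 41435 in E13.5 and to 1828 to 4837 in adult control, where 6 of the 12, Fabp7 (8156 ± 672 in E13.5) among them, had no read in any of the 3 libraries. Nes, at 3776 ± 1692, made up nearly all of the adult control sum. It was the only 1 of the 12 at 10 or more there. The E13.5 libraries are therefore called by their label only, and whether a difference from them comes from age or from the kinds of cell present cannot be told apart. In bulk libraries fewer cells of a type and less RNA per cell cannot be told apart either.

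Some libraries also stood apart within their group. Adult control 3 correlated with Wnt3a 2 at r = 0.990 over genes but with controls 1 and 2 at 0.962 and 0.958, and MS-275 2 deviated from its group mean in the same direction as those 2 libraries (r = 0.341 with control 3 and 0.396 with Wnt3a 2). E13.5 1 correlated with E13.5 2 and 3 at 0.968 and 0.965, which correlated with each other at 0.992. No pair of libraries was equal within sampling noise. Results below are therefore also given within set 1 (controls 1 and 2, Wnt3a 1, MS-275 1) and set 2 (control 3, Wnt3a 2, MS-275 2), which were defined from these correlations and not from the labels.

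A stretch of the Ctnnb1 reading frame is printed because it encodes the part of beta-catenin that the products of Apc, Axin1 and Gsk3b act on. It spans codons 31 to 46 on chromosome 9 in the GENCODE M21 transcripts, and the capitals mark the codons of S33, S37, T41 and S45, the residues phosphorylated before beta-catenin is degraded. These libraries report RNA, so they hold no measurement of that phosphorylation or of the protein.

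Ctnnb1 codons 31 to 46: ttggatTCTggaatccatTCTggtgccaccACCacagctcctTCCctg

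Promoter windows, 250 bases before to 50 after a start site in RefSeq on GRCm38.p6, were held for 4 of the 10 genes. Those of Reck and Bcl9 are printed because both genes rose with MS-275, and that of Gsk3b because it was called in no comparison. The windows are Reck chr4:43875280-43875579 on the plus strand, Bcl9 chr3:97227315-97227614 on the minus strand and Gsk3b chr16:38088751-38089050 on the plus strand, each written 5′ to 3′ along its gene. Capitals mark, on both strands, GGGCGG (the core of GC boxes), CCAAT and CTTTGA (the core of the TCF and LEF motif), which do not overlap in these windows.

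Reck promoter: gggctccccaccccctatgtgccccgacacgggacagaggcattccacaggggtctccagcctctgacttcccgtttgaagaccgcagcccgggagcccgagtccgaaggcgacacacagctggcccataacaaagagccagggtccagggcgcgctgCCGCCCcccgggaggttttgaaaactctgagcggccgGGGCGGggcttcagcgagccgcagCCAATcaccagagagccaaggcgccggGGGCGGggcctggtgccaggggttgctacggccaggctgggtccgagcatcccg

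Bcl9 promoter: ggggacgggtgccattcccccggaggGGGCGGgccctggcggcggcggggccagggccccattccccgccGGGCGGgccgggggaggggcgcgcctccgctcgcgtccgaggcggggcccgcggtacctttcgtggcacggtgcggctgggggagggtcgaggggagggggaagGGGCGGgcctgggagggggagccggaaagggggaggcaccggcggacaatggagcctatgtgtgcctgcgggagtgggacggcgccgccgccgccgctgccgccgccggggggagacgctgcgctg

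Gsk3b promoter: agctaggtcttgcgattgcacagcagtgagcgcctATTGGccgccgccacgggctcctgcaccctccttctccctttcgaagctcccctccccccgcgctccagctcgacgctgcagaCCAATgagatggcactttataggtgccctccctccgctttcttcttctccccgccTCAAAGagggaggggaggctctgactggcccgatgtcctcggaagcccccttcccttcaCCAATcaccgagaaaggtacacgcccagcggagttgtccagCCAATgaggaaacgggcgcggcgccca

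The Reck window held GGGCGG 3 times, CCAAT 1 time and CTTTGA 0 times, at 69.3% GC. The Bcl9 window held GGGCGG 3 times and neither of the others, at 80.7% GC. The Gsk3b window held CCAAT 4 times, CTTTGA 1 time and GGGCGG 0 times, at 63.0% GC. Both windows of Ctnnb1, which are not printed, held GGGCGG 3 times, at 75.3% and 75.0% GC. Ctnnb1 did not rise with MS-275 (log2 difference -0.82, not called). Over 32851 promoters, whose median GC was 52.7%, 35.7% held GGGCGG, 37.4% CCAAT and 16% CTTTGA. The matches describe the letters and not binding.

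Per kilobase of exon, Ctnnb1 had the highest level of the 10 genes in every group, from 3750.0 ± 81.0 in E13.5 to 10669.6 ± 3516 in adult control. Reck was the lowest in E13.5, adult control and Wnt3a, at 55.7 ± 6.96, 40.0 ± 21.4 and 49.2 ± 11.3. With MS-275 it was seventh and Bcl9l the lowest, at 32.6 ± 18.8. Gsk3b stood at 577 ± 70.6 in E13.5 and 595 ± 43.1 in adult control, close to Lrp5 at 655 ± 28.6 in adult control.

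The exons that set these lengths were those of GENCODE M21 on mm10, with 1-based positions. The co-receptor genes Lrp5 (ENSMUSG00000024913) and Lrp6 (ENSMUSG00000030201) lie on the minus strand at chr19:3584828-3686564 and chr6:134446476-134566965. Reck (ENSMUSG00000028476) lies at chr4:43875530-43944806 and Adgra2 (ENSMUSG00000031486) at chr8:27085583-27123436, both on the plus strand. Apc (ENSMUSG00000005871), Axin1 (ENSMUSG00000024182) and Gsk3b (ENSMUSG00000022812) lie on the plus strand at chr18:34220924-34322552, chr17:26138688-26195811 and chr16:38089001-38246084. Ctnnb1 (ENSMUSG00000006932) and Bcl9l (ENSMUSG00000063382) share a chromosome, at chr9:120929216-120960507 and chr9:44482825-44511896 on the plus strand, and Bcl9 (ENSMUSG00000038256) lies at chr3:97203662-97297917 on the minus strand. The Bcl9 promoter window printed above starts inside that gene as GENCODE draws it. All 10 are protein-coding genes.

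**Figure D1:**
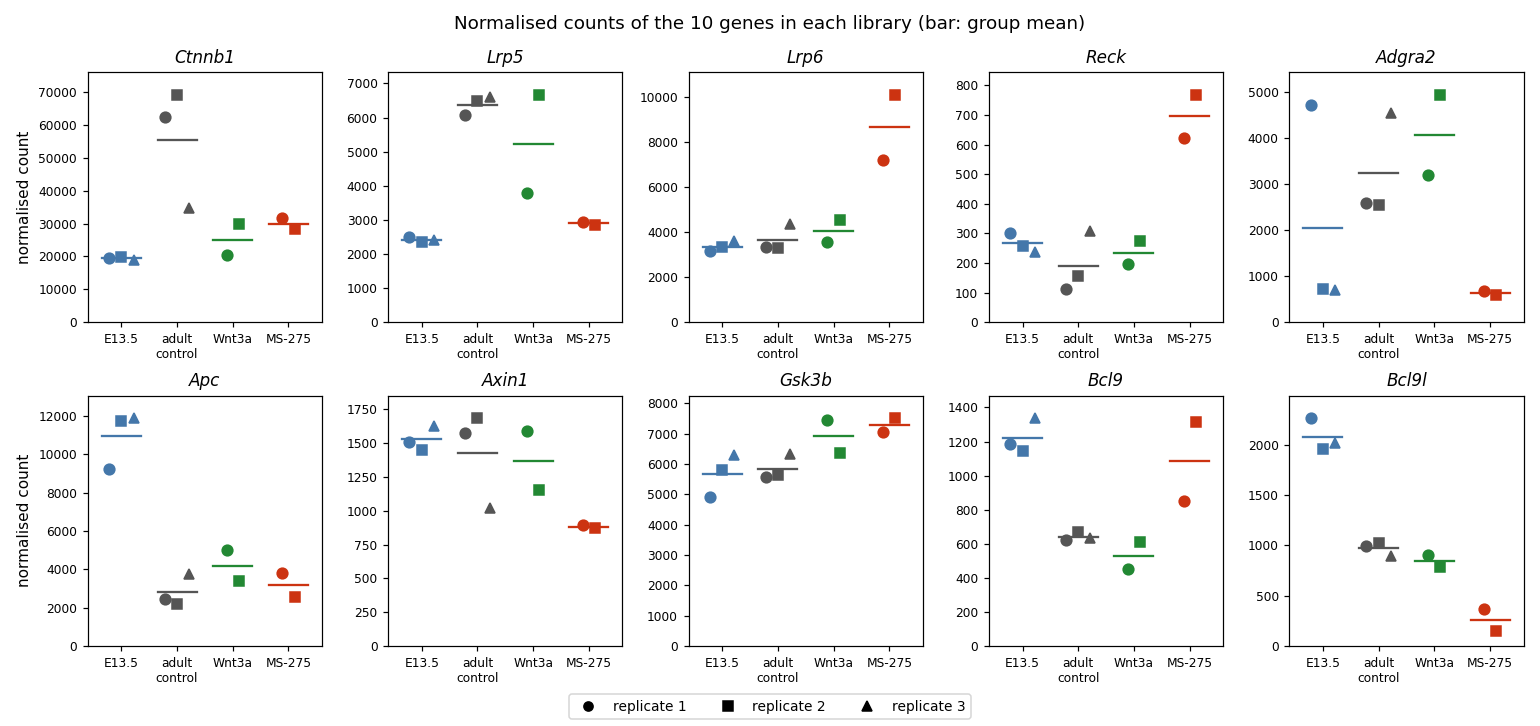
Normalised count (linear axis from 0) of each of the 10 genes in the 10 libraries. Points are libraries, with the marker shape giving the replicate number, and bars are group means. Ctnnb1 in adult control 3, at 34702, sits apart from 62278 and 69209 in controls 1 and 2, and Adgra2 in E13.5 1, at 4730.3, sits apart from 721 and 709.9.

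Adult control was first compared with the libraries labelled E13.5. limma was fitted on log2(normalised count + 1) in all 10 libraries. A gene was called at a Benjamini-Hochberg adjusted p below 0.05 if it also differed by more than 0.2 on the log2 scale. Of the 10 genes, 5 were called, Ctnnb1 and Lrp5 higher in adult control and Apc, Bcl9 and Bcl9l lower. Of all genes tested 49.1% were called, 17.9% higher and 31.2% lower, so the share among the 10 was near the background. The median absolute log2 difference was 1.01 over the 10 genes and 0.80 over all genes. The median signed difference over all genes was -0.20 and turned to 0.12 under quantile normalisation, which took the share of calls that were higher from 36.5% to 55.7%. Measured from the median of all genes, each of these 5 differences kept its sign under quantile normalisation. The sign also held under the other scalings, the main one among them. Taking off the median largely cancels a factor per library, so those could hardly have changed it.

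Ctnnb1 stood at 62278, 69209 and 34702 in adult control and at 19553, 19842 and 19014 in E13.5. The groups did not overlap, and control 3 was the closest to E13.5. The difference was 1.45 on the log2 scale (SE 0.28), or 2.73-fold (adjusted p = 0.0024, limma), and it lay between 1.14 and 1.75 over 21 other settings, all with the same call. Ulk4, on the opposite strand, overlaps 15.06% of the exonic bases of Ctnnb1 (together with Mir7090), and the sources used here do not state whether counting used strand. Reads in that overlap cannot be assigned to one gene, and Ulk4 was 0.266 to 0.353 of Ctnnb1 in every library.

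Lrp5, one of the 2 LRP co-receptors, stood at 6067, 6486 and 6595 in adult control and at 2509, 2342 and 2415 in E13.5. All 3 adult control libraries were above all 3 from E13.5, by 1.40 on the log2 scale (SE 0.19, adjusted p = 3.4e-04, limma). Its paralogue Lrp6 stood at 3349, 3291 and 4371 in adult control and 3161, 3336 and 3601 in E13.5. These ranges overlapped, and Lrp6 differed by 0.11 (95% interval -0.30 to 0.53).

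Apc, the scaffold of the destruction complex, stood at 9234, 11717 and 11875 in E13.5 and at 2437, 2205 and 3760.5 in adult control. The groups were far apart, and Apc in adult control was 3.99-fold lower (log2 difference -2.0, SE 0.26, adjusted p = 2.3e-04, limma). Axin1, the limiting scaffold in many accounts of the complex, gave -0.13 (interval -0.62 to 0.36). Gsk3b, the kinase, gave 0.05 (interval -0.27 to 0.37). Both overlapped between the groups, so of the 3 destruction-complex genes 1 was called.

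Bcl9 and Bcl9l, the adaptors between beta-catenin and PYGO, were both lower in adult control. Bcl9 stood at 624, 668 and 636 against 1183, 1144 and 1336 in E13.5, a difference of -0.92 (SE 0.20, adjusted p = 0.0049, limma). Bcl9l stood at 989.8, 1029 and 891 against 2264, 1959.6 and 2015, a difference of -1.10 (SE 0.28, adjusted p = 0.011). Neither pair of groups overlapped. The call of Bcl9 was lost only where an absolute log2 fold change above 1 was asked for.

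Reck and Adgra2, which act together at the membrane, were not called. Reck, a GPI-anchored protein, stood at 112, 155 and 307 in adult control and 303, 258 and 238 in E13.5, so control 3 alone reached the embryonic range. The difference was -0.60 (interval -1.43 to 0.23, adjusted p = 0.21, limma), and it was -1.0 with adjusted p = 0.014 without control 3. Adgra2, an adhesion GPCR, stood at 2605, 2552 and 4554 in adult control and at 4730.3, 721 and 709.9 in E13.5. One embryonic library lay above every control. The difference was 1.21 (interval -0.29 to 2.72, adjusted p = 0.16), and without E13.5 1 it was 2.12 with adjusted p = 0.0011. The same E13.5 1 library had a fibroblast marker sum of 21728, against 8537 and 8346 in E13.5 2 and 3. It was also the highest of the 3 in the pericyte and smooth muscle sum (51665 against 34208 and 32775) and in the cell-cycle sum (29166 against 14949 and 14035). The part of these in the Adgra2 value was not tested.

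**Figure D2:**
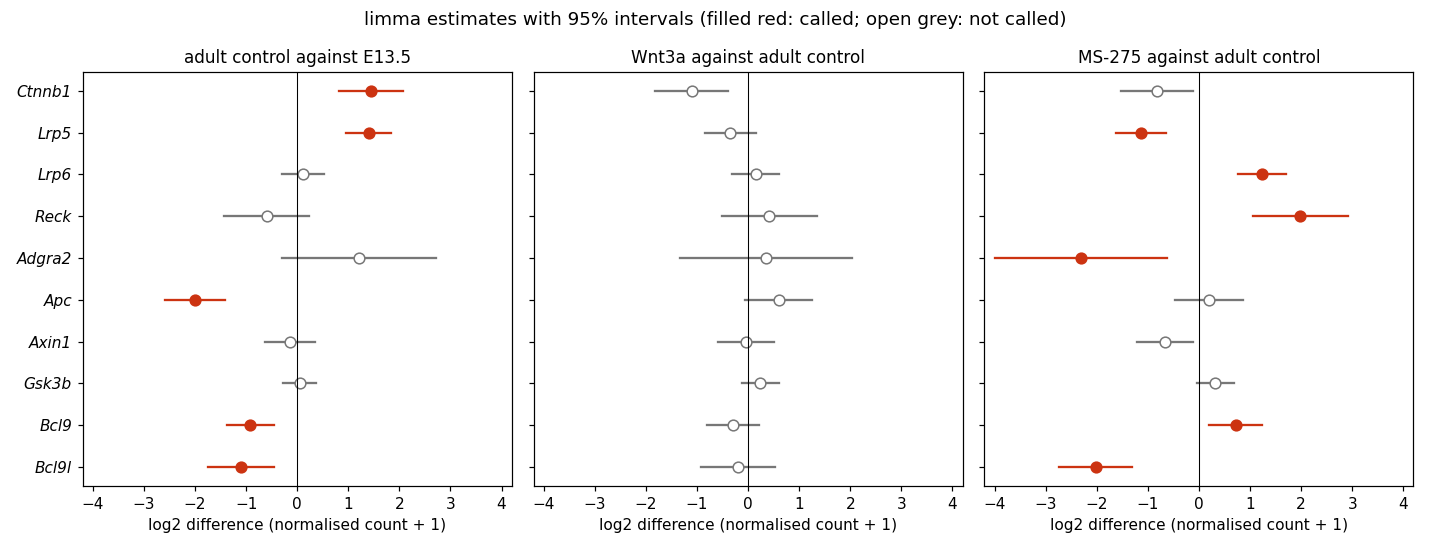
Log2 difference of normalised count + 1 (horizontal axis) for each gene in adult control against E13.5, Wnt3a against adult control and MS-275 against adult control. Points are limma estimates with 95% intervals, filled red where called and open grey where not. Called genes number 5, 0 and 6, and the Adgra2 intervals are the widest in all 3 panels.

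Wnt3a was set against adult control to ask what the ligand changes in mature cells. None of the 10 genes was called, and 0% of all genes tested were called by limma, edgeR or DESeq2, with 916, 925 and 1166 genes at an unadjusted p under 0.05. Of the 10 genes, 1 (Ctnnb1) had an unadjusted p under 0.05, and in 3 (Ctnnb1, Gsk3b and Bcl9) the groups did not overlap, while 16% of all genes did not overlap.

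Ctnnb1 stood at 20374 and 29749 with Wnt3a, against 62278, 69209 and 34702 in control. Both treated libraries were below all 3 controls, but Wnt3a 2 was near control 3. The difference was -1.11 (SE 0.31, interval -1.81 to -0.40, adjusted p = 0.75, limma). Within set 1 it was -1.69 and within set 2 it was -0.22, and without control 3 Ctnnb1 was called (-1.41, adjusted p = 0.025, limma). Control 3 is the only control of set 2. Without it Wnt3a 2 is compared with controls of set 1 alone, so that call mixes set with treatment. The other 9 genes differed by -0.35 (Lrp5) to 0.60 (Apc), with adjusted p from 0.75 to 1. Of the 10 genes, 6 had the same direction in both sets, and Lrp5, Reck, Apc and Axin1 did not. The share of all genes with the same direction was not computed, so this count is a description.

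Apc stood at 5009.6 and 3389 with Wnt3a, and only the first lay above the 3760.5 of control 3. Lrp5 stood at 3776 and 6673 and thus on both sides of its controls. The intervals of Lrp6 (-0.32 to 0.61) and Gsk3b (-0.12 to 0.60) exclude a 2-fold change in either direction, and that of Adgra2 (-1.33 to 2.04) does not.

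The comparison of MS-275 with adult control asked what inhibition of class I histone deacetylases changed in adult cells. Of the 10 genes 6 were called, with Lrp6, Reck and Bcl9 higher and Lrp5, Adgra2 and Bcl9l lower. Of all genes tested 39.1% were called, 21.8% higher and 17.4% lower. In both paralogue pairs 1 member rose and the other fell. The median absolute log2 difference was 0.98 over the 10 genes and 0.82 over all genes. The median signed difference was -0.23 over the 10 genes and 0.15 over all genes. All 6 called differences kept their sign relative to the median of all genes under quantile normalisation. The other scalings could hardly have changed that sign, for the reason given above. Beside these results, the endothelial marker sum was lower in both MS-275 libraries than in any control. Of its 12 genes 9 were called lower and 1 higher, and Slc2a1 stood at 7449 ± 1361 against 2839 ± 916 in control. Of 10 cell-cycle genes 9 were called lower and 1 higher. Some markers of other cells were higher. The fibroblast sum was 930 to 1322 against 156 to 260 in control (4 of 8 called higher). The pericyte and smooth muscle sum was 415 to 516 against 85.0 to 118 (3 of 7 tested). Of 12 neural markers 5 were called higher. Their sum, mostly Nes, overlapped control (2780 to 5380 against 1828 to 4837), and Sox2 had no read in either group. Of 10 astrocyte and oligodendrocyte lineage markers 2 were called higher, and 0 of 8 tested microglia and macrophage markers were called. The part of any of these in the differences was not tested.

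Lrp6 stood at 7229.6 and 10117 with MS-275, against 3349, 3291 and 4371 in control. Both treated libraries were above every other library of the series, and the difference was 1.23 (SE 0.21, adjusted p = 0.0020, limma). It was 1.12 within set 1 and 1.21 within set 2. Lrp5 went the other way, at 2944 and 2864 against 6067, 6486 and 6595 (-1.14, SE 0.22, adjusted p = 0.0039), and it was -1.09 and -1.20 within the sets. Both calls held in all 22 other settings.

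The ratio of Lrp6 to Lrp5 in counts per kilobase was therefore turned over. It was 0.99 ± 0.08 in E13.5, 0.41 ± 0.06 in adult control, 0.58 ± 0.14 with Wnt3a and 2.13 ± 0.54 with MS-275 (SD, n = 3, 3, 2 and 2). The lowest MS-275 library, at 1.75, was above the highest of any other group, at 1.06.

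Reck stood at 623 and 768 with MS-275, and no other library of the series passed 307. The difference was 1.98 (SE 0.41, 3.95-fold, adjusted p = 0.0056, limma), and it was 2.23 within set 1 and 1.32 within set 2. Its partner Adgra2 stood at 669.6 and 585, against 2605, 2552 and 4554 in control. That difference was -2.31 (SE 0.74, 4.97-fold lower, adjusted p = 0.036), with -1.94 and -2.96 within the sets. All MS-275 libraries were thus below all controls for Adgra2, but the call was lost in 6 of 22 other settings, with adjusted p up to 0.16 without MS-275 2.

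Bcl9l stood at 367 and 154 with MS-275, below the 989.8, 1029 and 891 of control and every other library. The difference was -2.02 (SE 0.32, 4.06-fold lower, adjusted p = 0.0015, limma), and -1.46 and -2.52 within the sets. Bcl9 stood at 851 and 1315 against 624, 668 and 636, a difference of 0.72 (SE 0.23, adjusted p = 0.034). This call was lost in 7 of 22 other settings, with adjusted p up to 0.24 and a difference of 0.41 without MS-275 2. The ratio of Bcl9 to Bcl9l per kilobase was 0.56 ± 0.07 in E13.5, 0.63 ± 0.04 in adult control, 0.60 ± 0.19 with Wnt3a and 5.14 ± 4.16 with MS-275. The MS-275 libraries themselves were at 2.20 and 8.08, both above the highest of the other libraries at 0.74. Exons of Cxcr5 and Gm47205 on the opposite strand overlap 9.65% of the exonic bases of Bcl9l, and Cxcr5 held at most 20.3 counts in any library.

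**Figure D3:**
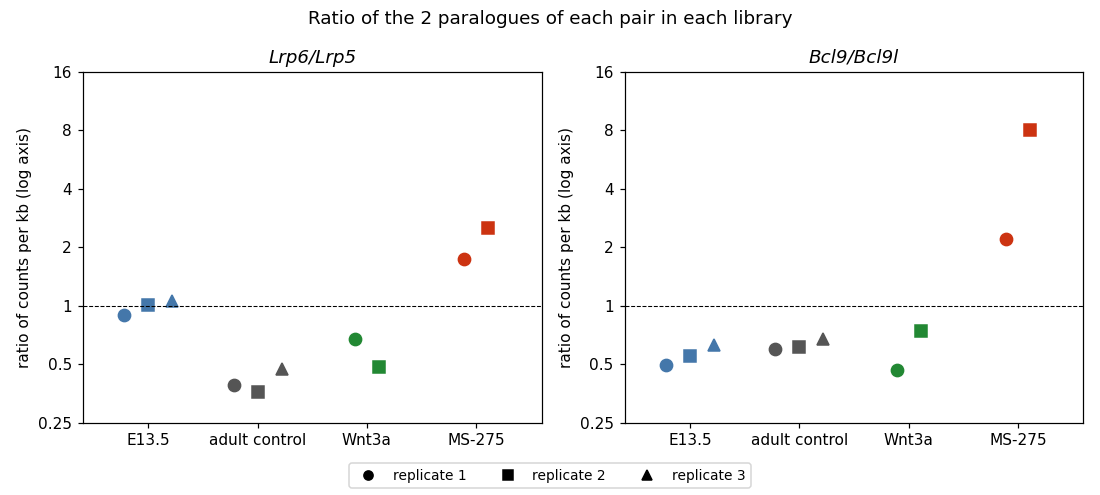
Ratio of Lrp6 to Lrp5 and of Bcl9 to Bcl9l in counts per kilobase (vertical log axis) in each library of the 4 groups. Points are libraries and the dashed line marks equal levels. Only the MS-275 libraries exceed 1.06 in Lrp6/Lrp5, at 1.75 and 2.52, and only they exceed 0.74 in Bcl9/Bcl9l, at 2.20 and 8.08.

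The remaining 4 genes were not called with MS-275. Ctnnb1 stood at 31601 and 28443, below all 3 controls, and differed by -0.82 (interval -1.53 to -0.12, adjusted p = 0.064, limma). It was -1.05 within set 1 and -0.29 within set 2. Ctnnb1 was called in 4 of 22 other settings, among them edgeR (adjusted p = 0.041) and DESeq2 (adjusted p = 0.016). Another was the fit without control 3 (-1.13, adjusted p = 0.0053, limma). In that fit MS-275 2 has no control of its set, so set and treatment are mixed. Axin1 stood at 891 and 871, below the 1574, 1682 and 1018 of control, and differed by -0.66 (adjusted p = 0.058), with a call in 4 other settings too, among them edgeR (0.042) and DESeq2 (0.029). Control 3 was the lowest control in both genes.

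Apc stood at 3802 and 2547 with MS-275 and overlapped its controls, with 0.71 within set 1 and -0.56 within set 2. It was the only one of the 10 genes whose direction differed between the sets, a count with no share over all genes beside it. Gsk3b stood at 7071 and 7505 against 5574, 5641 and 6339, a difference of 0.32 (interval -0.04 to 0.68, adjusted p = 0.15, limma), which excludes a 2-fold change.

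**Figure D4:**
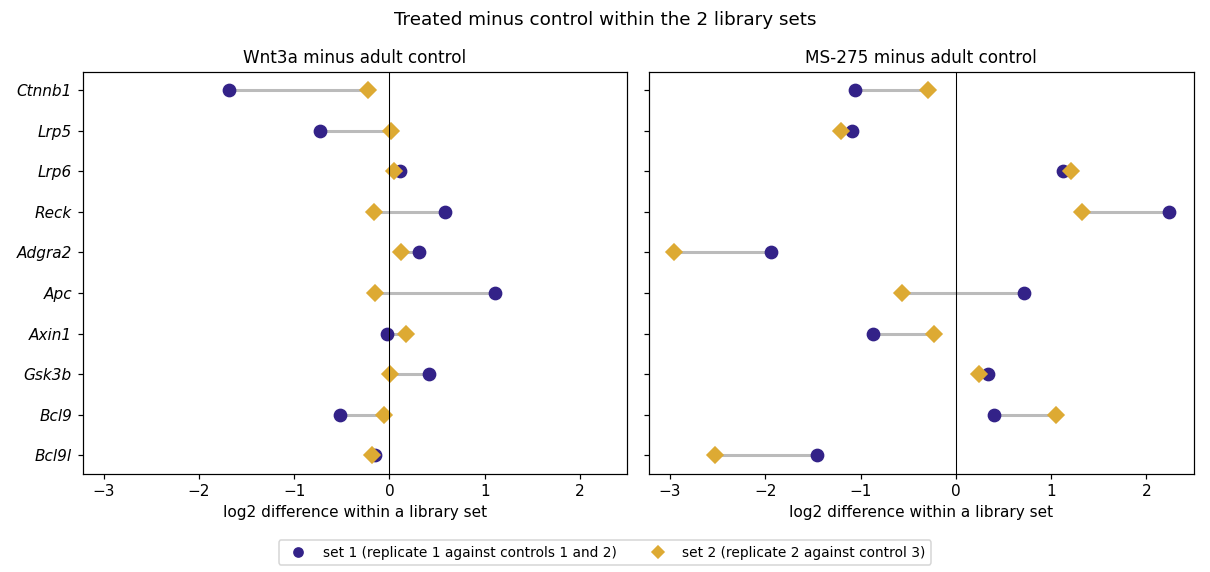
Log2 difference from adult control (horizontal axis) within each of the 2 library sets, for Wnt3a (left) and MS-275 (right). Circles are set 1 and diamonds set 2. Directions matched in 6 of 10 genes for Wnt3a and in 9 of 10 for MS-275, where Apc was the exception. The share of all genes with matching directions was not computed.

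The treated groups were also set directly against each other, a comparison that holds no control library. MS-275 differed from Wnt3a in 6 of the 10 genes, against 29.3% of all genes, with Lrp6, Reck and Bcl9 higher and Lrp5, Adgra2 and Bcl9l lower. Lrp6 was 1.09 higher (adjusted p = 0.0080), Bcl9l gave -1.82 (adjusted p = 0.0057) and Adgra2 gave -2.67 (adjusted p = 0.037, limma). Ctnnb1 differed by 0.28 (interval -0.49 to 1.06).

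The treated groups were also compared with E13.5. MS-275 differed in 5 of the 10 (52.2% of all genes), with Lrp6 and Reck higher and Apc, Axin1 and Bcl9l lower, and Wnt3a in 4 of the 10 (42.8% of all genes), with Lrp5 higher and Apc, Bcl9 and Bcl9l lower. Bcl9l was 8.69-fold lower with MS-275 than in E13.5 (log2 difference -3.12, SE 0.32, adjusted p = 7.1e-05, limma). Lrp5 with MS-275 was 0.26 above E13.5 (interval -0.23 to 0.76) and Bcl9 was at -0.20 (interval -0.72 to 0.31), so both intervals included no difference from the embryonic level, and for Lrp5 both MS-275 libraries were nevertheless above all 3 from E13.5.

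From lowest to highest, the group means of Lrp5 ran E13.5, MS-275, Wnt3a and adult control, where of the steps between neighbours only that from MS-275 to Wnt3a was called (adjusted p = 0.036, limma). Those of Lrp6 ran E13.5, adult control, Wnt3a and MS-275, and only the last step was called. Apc ran adult control, MS-275, Wnt3a and E13.5, and only the step to E13.5 was called (adjusted p = 0.0043). Bcl9l ran MS-275, Wnt3a, adult control and E13.5, where the step from Wnt3a to adult control was the only one not called (adjusted p = 0.90). Ctnnb1 ran E13.5, Wnt3a, MS-275 and adult control, and no step between neighbours was called, although the MS-275 and adult control libraries did not overlap and that step was called in 4 other settings. Reck ran adult control, Wnt3a, E13.5 and MS-275, where only the last step was called (adjusted p = 0.020). Bcl9 ran Wnt3a, adult control, MS-275 and E13.5, where only the step from adult control to MS-275 was called. Axin1 ran MS-275, Wnt3a, adult control and E13.5, Gsk3b ran E13.5, adult control, Wnt3a and MS-275, and Adgra2 ran MS-275, E13.5, adult control and Wnt3a, and in these 3 genes no step between neighbours was called.

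Over the 10 libraries the gene whose log2 values were most like those of Ctnnb1 was Ulk4 (r = 0.975), the overlapping gene named above, followed by Sgsm3 (0.971) and Coasy (0.971). For Reck they were Ccdc65 (0.986), Maoa (0.981) and Aph1b (0.974). Ccdc65 stood at 9.90 in adult control and 536 with MS-275, and Maoa at 2175 and 7014. The libraries share groups and sets, so these correlations are descriptions.

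Other genes of the pathway were taken as 8 lists by role, chosen with earlier results of these data known. Some genes are shared between lists, such as Axin2, Tcf7, Lef1, Nkd1 and Rnf43, so the lists are not separate lines of evidence. A gene that passed the filter on low values through 1 group alone could differ only by being higher there. Counts of calls in the lists are therefore partly set by the filter. No gene of any list was called with Wnt3a. Among Frizzled receptors 2 of 10 were called higher and 5 lower in adult control against E13.5, and 0 higher and 2 lower with MS-275. Over all genes the shares were 17.9% higher and 31.2% lower in adult control, and 21.8% higher and 17.4% lower with MS-275. Fzd4, the main Norrin receptor of brain and retinal vessels, stood at 5992 ± 1764 in adult control, 627 ± 42.0 in E13.5 and 1855 ± 537 with MS-275. Fzd3 had 0 reads in all adult libraries and stood at 4294 ± 965 in E13.5, at least 4510-fold higher than in adult control with a floor of 3 reads over the 3 control libraries.

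All 8 tested genes of the list of ligands and helpers of the brain endothelial Wnt signal were lower in adult control than in E13.5, where 31.2% of all genes were lower. Of these 8, 6 had 0 reads in adult control. Rspo2 had 0 reads in every adult library, so it passed the filter through E13.5 alone and its direction was fixed by that. The count is therefore a description and not a test. Ndp, which encodes Norrin, stood at 279 ± 50.1 in E13.5 and had 0 reads in control. Wnt7b stood at 1455 ± 449 in E13.5, 8.77 ± 5.89 in control, 0 reads with Wnt3a and 20.9 ± 1.77 with MS-275. With MS-275 3 of the 8 were called higher and 1, Tspan12, a co-factor of Fzd4, was lower at 327 ± 63.6 against 811 ± 286. Of those higher, Wnt3 and Rspo1 had 6 and 4 reads over both MS-275 libraries, so their levels were near the floor of 3 reads. The other was Wnt7a, which had 0 reads in control and stood at 17.5 and 87.0 with MS-275.

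Of 16 co-receptor partners and regulators 1 was higher and 12 lower in adult control than in E13.5, and 10 were higher and 2 lower with MS-275, against 49.1% and 39.1% of all genes called in either direction. Lgr4, an R-spondin receptor, stood at 721 ± 38.3 in E13.5, 76.2 ± 12.5 in control and 429 ± 74.3 with MS-275 (2.48 above control, SE 0.27, adjusted p = 3.1e-04, limma). Caprin2, which binds LRP5 and LRP6, rose from 26.8 ± 12.1 to 723 ± 76.0. Lrp4 stood at 2863 ± 57.6 in E13.5, 1.89 ± 1.98 in control and 80.0 ± 32.8 with MS-275.

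Of 11 Dishevelled and membrane relay genes 1 was higher and 3 lower in adult control than in E13.5, and 0 were higher and 2 lower with MS-275, in both comparisons a smaller share than the 49.1% and 39.1% of all genes. Dvl3 stood at 3625 ± 565 in E13.5 and 732 ± 85.1 in control, and Dab2, an endocytic adaptor, fell from 9839 ± 2878 to 1361 ± 1017 with MS-275. Of 21 other genes of the destruction complex and its proteasomal relay 1 was higher and 7 lower in adult control, and 6 were higher and 3 lower with MS-275, a share below the 49.1% of all genes in the first comparison and near the 39.1% in the other. Csnk1a1, the kinase that primes beta-catenin, stood at 12828 ± 496 in E13.5 and 6773 ± 731 in control. Skp1a, a subunit of the ligase that takes up phosphorylated beta-catenin, rose from 5163 ± 730 to 12079 ± 490 with MS-275 (1.23, SE 0.18, adjusted p = 0.0011, limma). Apc2 was at 1525 ± 110 in E13.5, 8.43 ± 2.47 in control and 72.7 ± 3.87 with MS-275, higher there than in control.

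Of 23 nuclear partners of beta-catenin 2 were higher and 6 lower in adult control than in E13.5, and 4 were higher and 7 lower with MS-275, a share below the 49.1% of all genes in the first comparison and near the 39.1% in the other. Tcf7 stood at 998 ± 221 in E13.5, 12.3 ± 5.40 in control, 27.6 ± 11.6 with Wnt3a and 292 ± 29.1 with MS-275 (4.54 above control, SE 0.46, adjusted p = 2.4e-04, limma). Med12, a Mediator subunit, fell from 2452 ± 259 to 550.0 ± 0.29. Sox17, an endothelial factor, stood at 1.74 ± 0.16 in E13.5, 2532 ± 226 in control and 75.9 ± 34.9 with MS-275. Of 11 catenins and cadherin partners 5 were higher and 6 lower in adult control, and 1 was higher and 4 lower with MS-275, against 49.1% and 39.1% of all genes. With MS-275 Cdh5 fell from 82471 ± 7459 to 6870 ± 5744.

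Of 15 tested Wnt and beta-catenin targets none was higher and 11 were lower in adult control than in E13.5, and 10 were higher and 2 lower with MS-275, where 31.2% of all genes were lower in the first comparison and 21.8% higher in the other. These counts are partly set by the filter. Nkd1, at 219 ± 38.5 in E13.5 and 0 reads in control, passed through E13.5 alone. Rnf43 passed only with the MS-275 libraries. The median log2 difference of this list was -3.80 and 2.48, against -0.20 and 0.15 over all genes, and both medians were the same with genes at 0 set to their floor. Axin2, the negative feedback gene, stood at 302 ± 88.1 in E13.5, 2 reads over the 3 controls, 6.36 ± 1.14 with Wnt3a, and 11.9 and 83.1 in the MS-275 libraries. Lef1 stood at 154 ± 58.8 in E13.5, 2 reads in control, 0 reads with Wnt3a and 10.2 ± 7.20 with MS-275. Rnf43, a ligase that removes Frizzled receptors, had 0 reads in control and stood at 27.4 ± 12.2 with MS-275.

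**Figure D5:**
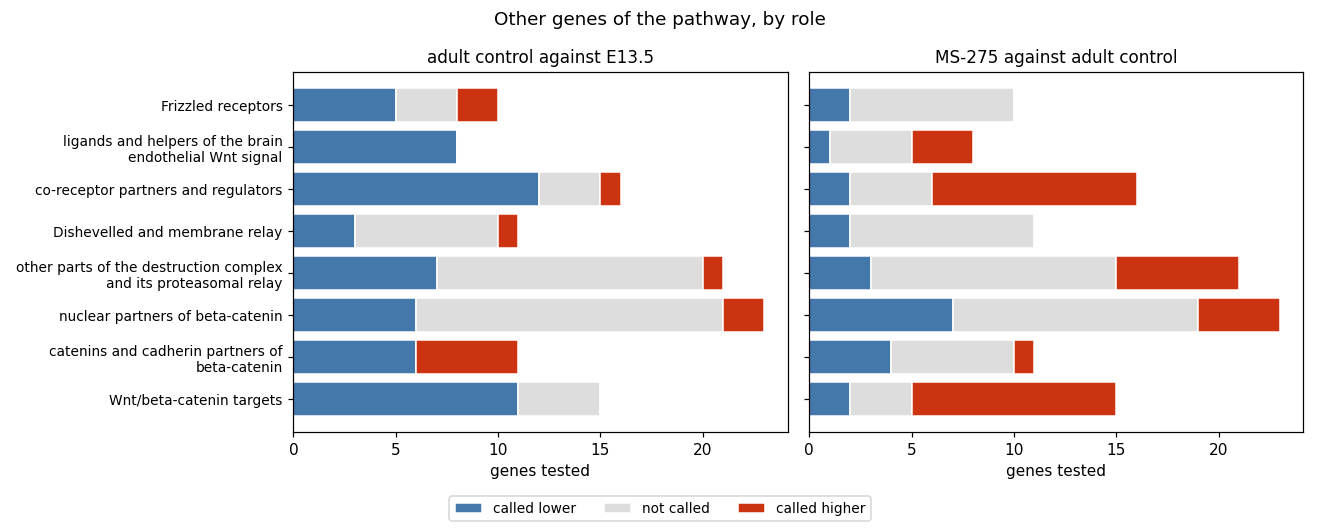
Number of tested genes of each of 8 pathway lists (horizontal axis) called lower (blue), not called (grey) or called higher (red), in adult control against E13.5 (left) and MS-275 against adult control (right). In the target list 11 of 15 were lower in adult control and 10 of 15 higher with MS-275.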

How the data were processed

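mRNA of mouse cortical ECs, sequenced paired-end, was aligned by the authors to mm10 with STAR and counted over protein-coding GENCODE genes. The deposited values are counts divided by the size factor of each library, a normalised signal from DESeq2, per the labels and the paper's methods; featureCounts is also named, versions are not given in the sources used here, nor is the strand setting. Size factors from 0.72 to 1.26 were read back from the values, 100% of which came out whole within 0.01. Rows whose symbols had turned into dates (26) held 0.21% to 0.281% of the counts of a library and were left out. Reads on genes ranged from 21171509 to 31810932.

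Differences were tested with limma 3.58.1 (R 4.3.3, trend) on log2(normalised count + 1), for genes at 10 or more in at least 2 libraries, with all 10 libraries in 1 fit and Benjamini-Hochberg adjustment over 15211 genes. Groups came from the labels. The fit was run on simulated counts with the same dispersion for all genes and no library sets. It called 92 of 100 genes changed by 1 on the log2 scale and 100 of 100 changed by 2, with 10 false calls. The real libraries differ by set, so this checks the code and not the error rate in these data. edgeR 4.0.16 and DESeq2 1.42.0 on the recovered reads, other pseudocounts (0.5, 10), filters (none, 50), scalings, a fit of the compared groups, a replicate block, a log2 threshold of 1 and leaving out each library were alternatives. A term for the library set was added after seeing the data. Exon overlaps and lengths came from GENCODE M21 on mm10, which held 99.2% of the symbols, while the methods name a later release. The labels call replicates biological. The limma p-values set a difference between group means against a spread estimated within all 4 groups together. The main fit holds no term for the library sets.

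The members and gene lists were chosen with earlier results of these data known. Beside the 10 members, the text names genes from those with the smallest p in each pathway list (up to 4 in adult control against E13.5 and up to 3 in each treatment), the 2 most abundant of each marker list, and the 3 genes most correlated with Ctnnb1 and with Reck. Cldn5, Kdr, Flt1, Slc2a1 and Sox2 fall outside this rule and were named after their values were seen.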

Additional observations from a re-analysis of the deposited data

How the results depend on the processing

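The number of the 10 genes called in adult control against E13.5 was 5 and lay between 4 and 6 over 21 alternatives, all 5 remaining called except Bcl9 at a log2 threshold of 1. With MS-275 it was 6 and lay between 4 and 8 over 22 alternatives, where Lrp5, Lrp6, Reck and Bcl9l were called every time. With Wnt3a it was 0, and over 22 alternatives the only call was Ctnnb1 without adult control 3, a fit that holds no control of set 2. Over all genes, calls with Wnt3a were 0, but 579 without adult control 3 and 74 without Wnt3a 2, and calls with MS-275 fell from 5955 to 3505 without MS-275 2. On the recovered reads edgeR called 7392, 0 and 5656 genes in adult control against E13.5, Wnt3a and MS-275, and DESeq2 called 7840, 0 and 6611, against 7462, 0 and 5955 with limma.

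The direction of some uncalled genes turned. In adult control against E13.5, Axin1 was 0.045 with edgeR and TMM, Reck 0.13 and Gsk3b -0.12 with quantile normalisation, and Lrp6 -0.018 and Gsk3b -0.083 at equal library totals. When each library was left out, Lrp6 ranged from -0.018 to 0.19, Axin1 from -0.27 to 0.092 and Gsk3b from -0.049 to 0.13. With Wnt3a, leaving out each library gave Lrp5 -0.76 to 0.065, Lrp6 -0.023 to 0.31 and Axin1 -0.28 to 0.19, and Axin1 was 0.030 with a term for the library set. With MS-275, leaving out each library gave Apc -0.10 to 0.48. The cause was not tested.

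Replicate numbers did not pair controls with treated libraries, with deviations of same-numbered libraries correlating at 0.448 and -0.452 between control and Wnt3a. Between Wnt3a and MS-275 those of same-numbered libraries correlated at 0.396, a value that is the same for both numbers by construction. With a replicate block the genes called numbered 5, 0 and 7, the last adding Ctnnb1 (-0.99, adjusted p = 0.035, limma). Since the numbers do not pair these libraries, that block does not remove the difference between the sets. No conclusion is drawn from the added call. The lowest value among the 10 genes was 112, while list genes with 3 or fewer reads in a group were at the floor.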
